A study of Rattus norvegicus with 12 samples.

Results

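The genes examined here encode the pore-forming subunits of AMPA and kainate receptors in the rat central amygdala (CeA). They were chosen by gene name and not by their values, though earlier results of these data were known. The set comprised 4 AMPA receptor genes (Gria1, Gria2, Gria3 and Gria4, encoding GluA1 to GluA4) and 5 kainate receptor genes (Grik1, Grik2, Grik3, Grik4 and Grik5, encoding GluK1 to GluK5), which is 9 of the 37209 genes in the count table. All 9 had enough reads to be tested, among 20944 tested genes. Poly-A RNA was sequenced from the CeA of 12 adult male wild-type Sprague Dawley rats aged 14 to 16 weeks, with 1 library per rat and 6 rats per group. The CIE group (rats 1 to 6) had been exposed to chronic intermittent ethanol vapor, and the Control group (rats 7 to 12) had breathed air. Tissue was taken immediately after the last exposure, so the CIE rats had not been withdrawn from ethanol. The sample titles carry the suffix CIE for every rat, and groups were therefore read from the treatment label. The tissue was a punch from frozen sections of 1 hemisphere, rats shared cages, and the cages were not given in the labels.

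Both receptor families are ligand-gated cation channels built as tetramers and opened by glutamate. AMPA receptors carry most of the fast excitatory current at central synapses, and their subunit makeup sets calcium permeability and trafficking. Kainate receptors act on both sides of the synapse, where they modulate transmitter release as well as postsynaptic current. The CeA consists mainly of GABAergic neurons, and glutamatergic input reaches it from the basolateral amygdala, thalamus and cortex, with the striatum lying beside it.

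Libraries held 39082548 (Control rat 11) to 95647601 (Control rat 8) counts, and no subunit had fewer than 1079 counts in any rat (Grik1, Control rat 10), so counting error was small for all 9 genes. Levels below are TMM-scaled CPM, in which each rat's counts are expressed relative to its library total so that rats sequenced to different depths can be compared. They are not divided by transcript length, so a level was compared between rats and not between genes. The CeA markers Prkcd (31.7 CPM in CIE and 34.9 CPM in Control) and Sst (180 and 210 CPM) were present in both groups, and of 12 CeA markers 2 (Crh and Nts) were lower in CIE at a nominal p of 0.05, with 9 below a log2 fold change of 0. Summed markers of cortical glutamatergic neurons spanned 123 to 586 CPM in CIE and 108 to 310 CPM in Control, and 3 of the 11 tested passed a nominal p of 0.05, all of them higher in CIE (4.0% of all tested genes were higher and 4.31% lower at that threshold). Of the 12 myelinating oligodendrocyte markers, 11 were lower in CIE at that threshold, with sums of 5789 to 14037 CPM in CIE and 8890 to 16660 CPM in Control, as were 5 of 9 endothelial markers, among which Kdr passed 5% FDR (edgeR FDR = 0.0116). In bulk tissue, fewer cells of a type and less RNA per cell cannot be told apart.

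No AMPA or kainate receptor subunit passed the test for a difference between CIE and Control. In the edgeR quasi-likelihood test, 0 of the 9 subunits passed a nominal p of 0.05, against 8.31% of all tested genes, and 0 passed a false discovery rate (FDR) of 5%, against 0.363% of all tested genes. DESeq2 also gave 0 subunits at a nominal p of 0.05, whereas limma-voom with sample quality weights gave 2 (Gria3 and Grik5), in a fit where 17.2% of all genes passed, and none at 5% FDR. The 6 CIE and 6 Control values overlapped for every subunit, while 0.893% of all tested genes had groups that did not overlap. There were 7 subunits with a log2 fold change (CIE minus Control) above 0 and 2 with one below 0 (Gria4 and Grik4), beside 50.3% of all tested genes above 0. The median log2 fold change was 0.09 over the 4 AMPA genes and 0.06 over the 5 kainate genes, beside 0.00096 over all tested genes.

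**Figure D1:**
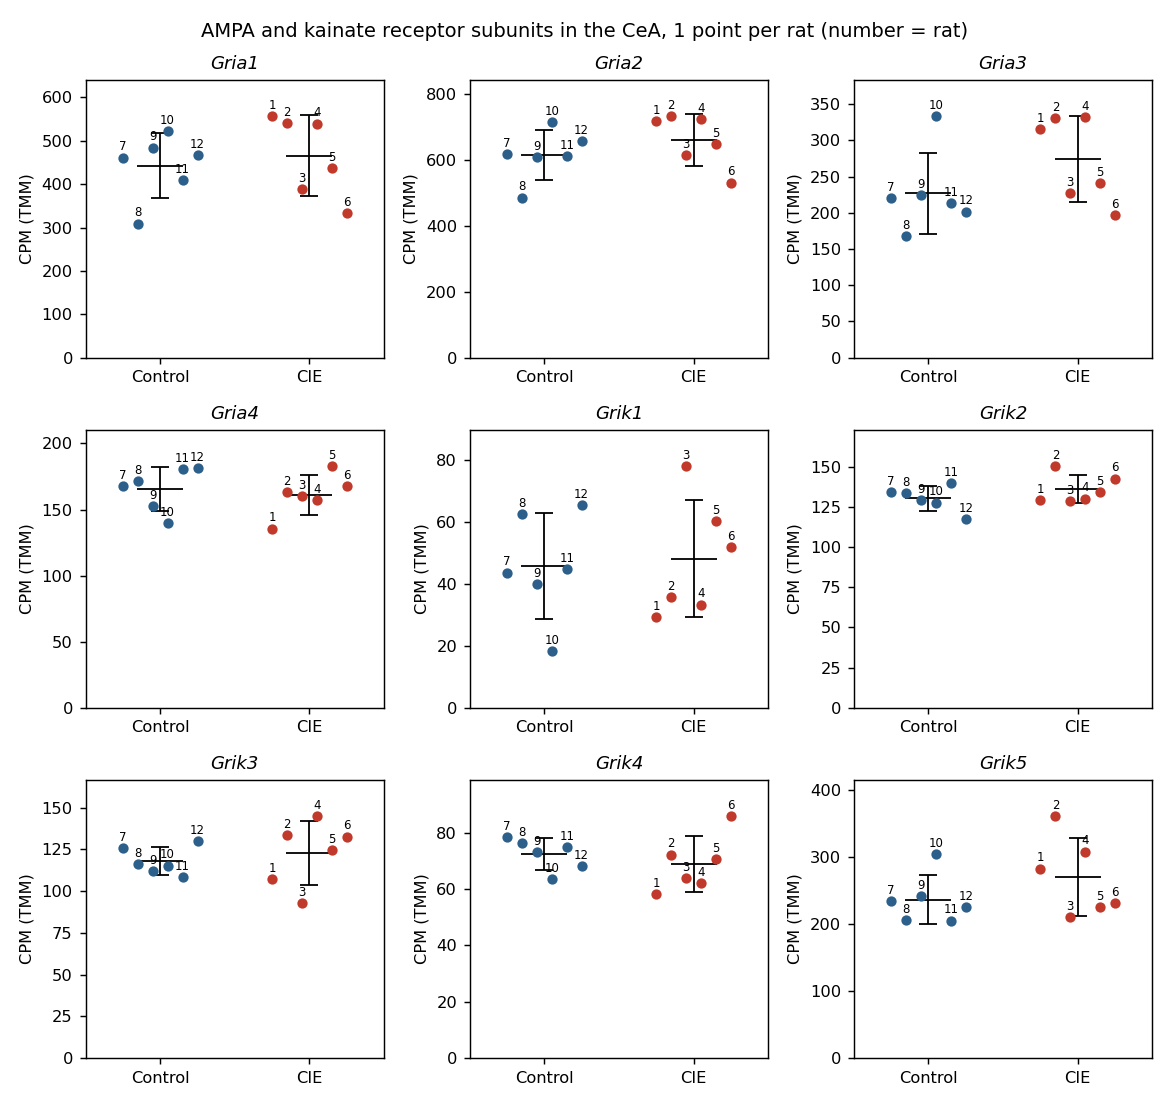
Level of each AMPA and kainate receptor subunit in every rat (CPM, vertical axis from 0), with CIE in red, Control in blue, the rat number beside each point, and bars for the group mean and SD. The 2 groups overlap for each of the 9 genes, and CIE rats 1, 2 and 4 with Control rat 10 sit together at the top for Gria1, Gria2, Gria3 and Grik5 and at the bottom for Grik1.

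Gria1 encodes GluA1, the AMPA subunit best known for its activity-dependent delivery to synapses. In CIE rats its lowest, median and highest levels were 333, 488 and 557 CPM, and in Control rats 309, 464 and 522 CPM. CIE rats 1, 2 and 4 lay above all Control rats, Control rat 8 lay below all CIE rats, and the others were interleaved. Means were 466 ± 93.6 CPM in CIE and 442 ± 74.8 CPM in Control (SD, n = 6 each). The log2 fold change was 0.08 ± 0.14 (SE, edgeR p = 0.609, FDR = 0.931, exact permutation p = 0.675), and its 95% interval ran from 0.851-fold to 1.31-fold. The exact test here and below is two-sided, 6 rats against 6, on mean log2 CPM.

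Gria2 encodes GluA2, whose edited form makes AMPA receptors nearly impermeable to calcium. Levels were 532, 684 and 734 CPM (lowest, median, highest) in CIE and 486, 615 and 716 CPM in Control. The same 3 CIE rats stood above all Control rats, and Control rat 8 was again the lowest of all. CIE exceeded Control by a log2 fold change of 0.10 ± 0.10 (SE, edgeR p = 0.315, FDR = 0.842, exact permutation p = 0.348), with an interval of 0.928-fold to 1.24-fold. The rats high in Gria1 were the rats high in Gria2, and the log2 ratio of Gria1 to Gria2 reads was −0.52 ± 0.13 in CIE and −0.49 ± 0.11 in Control (SD, n = 6 each). Reads counted per gene do not separate the edited from the unedited Gria2 transcript, nor the flip from the flop splice forms of any AMPA gene.

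Gria3, encoding GluA3, which pairs with GluA2 in a receptor population held at synapses without strong stimulation, had the smallest p of the 9 genes. Its levels in CIE rats 1 to 6 were 315, 331, 227, 332, 241 and 196 CPM. In Control rats 7 to 12 they were 220, 167, 224, 334, 214 and 202 CPM. CIE rats 1, 2 and 4 and Control rat 10 formed a high set, the other rats lay well below it, and the highest rat of all was a Control rat. Its log2 fold change was 0.27 ± 0.17 (SE, edgeR p = 0.125, FDR = 0.724, exact permutation p = 0.177), and 17.3% of all tested genes had a smaller edgeR p. Its interval, 0.943-fold to 1.55-fold, reached past that of every other AMPA gene. Without Control rat 10 the log2 fold change was 0.42 (edgeR FDR = 0.272) and without CIE rat 6 it was 0.35 (edgeR FDR = 0.522), both past a nominal p of 0.05. With cortical and striatal marker scores as covariates it was 0.10 (edgeR FDR = 0.838). Here and below, covariate scores kept their group means, so such a fit can take up part of a group difference.

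Gria4, encoding GluA4, a subunit of fast-gating receptors, was the steadiest AMPA gene. Its levels were 136, 162 and 183 CPM (lowest, median, highest) in CIE and 140, 170 and 181 CPM in Control. CIE rats held both the lowest value (rat 1) and the highest (rat 5). CIE minus Control was −0.04 ± 0.08 on the log2 scale (SE, edgeR p = 0.636, FDR = 0.935, exact permutation p = 0.639), within 0.861-fold to 1.10-fold.

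Grik1 encodes GluK1, a kainate subunit found largely on interneurons and a frequent drug target. It spread more than any other subunit. CIE rats 1 to 6 had 29.3, 35.8, 77.9, 33.3, 60.1 and 51.7 CPM, and Control rats 7 to 12 had 43.6, 62.5, 39.8, 18.2, 44.8 and 65.3 CPM. The highest rat (CIE rat 3) was 4.29 times the lowest (Control rat 10), and the 4 rats that were high in Gria3 were the lowest in Grik1. The within-group SD of Grik1 was 0.61 on the log2 scale, above 98.8% of genes of like level. Its log2 fold change was 0.07 ± 0.29 (SE, edgeR p = 0.810, FDR = 0.969, exact permutation p = 0.810), and the interval of 0.683-fold to 1.62-fold left changes of moderate size unresolved in either direction. With cortical and striatal marker scores as covariates it was 0.43 ± 0.17, past a nominal p of 0.05 (SE, edgeR FDR = 0.477).

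Grik2, encoding GluK2, the principal channel-forming kainate subunit, was by contrast nearly level across rats. It had 129, 132 and 150 CPM (lowest, median, highest) in CIE and 117, 131 and 140 CPM in Control. CIE rat 2 was the highest and Control rat 12 the lowest, with the rest within 128 to 143 CPM. On the log2 scale the difference was 0.06 ± 0.06 (SE, edgeR p = 0.330, FDR = 0.849, exact permutation p = 0.275), and the interval of 0.953-fold to 1.14-fold was the narrowest of the 9.

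Grik3 encodes GluK3, a channel-forming subunit of low agonist sensitivity. Levels were 92.8, 129 and 145 CPM (lowest, median, highest) in CIE and 108, 116 and 130 CPM in Control, so the Control range fell inside the CIE range. The CIE SD was 19.2 CPM and the Control SD 8.36 CPM. CIE minus Control was 0.06 ± 0.10 on the log2 scale (SE, edgeR p = 0.579, FDR = 0.924, exact permutation p = 0.693), with a 95% interval of −0.15 to 0.27. It was 0.0022 without CIE rat 4 and 0.12 without CIE rat 3.

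Grik4 and Grik5 encode GluK4 and GluK5, the high-affinity kainate subunits, which conduct only when assembled with GluK1, GluK2 or GluK3. Grik4 levels were 58.3, 67.2 and 85.8 CPM (lowest, median, highest) in CIE and 63.5, 73.9 and 78.5 CPM in Control, and the Control rats again lay inside the CIE range. For Grik4 the log2 fold change was −0.07 ± 0.09 (SE, edgeR p = 0.428, FDR = 0.881, exact permutation p = 0.400), within 0.831-fold to 1.09-fold, and it was −0.15 without CIE rat 6 and −0.030 without CIE rat 1.

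Grik5 levels in CIE rats 1 to 6 were 283, 361, 211, 308, 225 and 231 CPM. In Control rats 7 to 12 they were 235, 206, 242, 304, 205 and 226 CPM. CIE rats 1, 2 and 4 and Control rat 10 were again the 4 highest, and the other CIE rats lay among the other Control rats. For Grik5 the log2 fold change was 0.19 ± 0.14 (SE, edgeR p = 0.180, FDR = 0.776, exact permutation p = 0.277), within 0.933-fold to 1.40-fold. Without CIE rat 2 it was 0.090 (edgeR FDR = 0.926), without Control rat 10 it was 0.28, past a nominal p of 0.05 (edgeR FDR = 0.407), and with cortical and striatal marker scores as covariates it was 0.014 (edgeR FDR = 0.977).

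**Figure D2:**
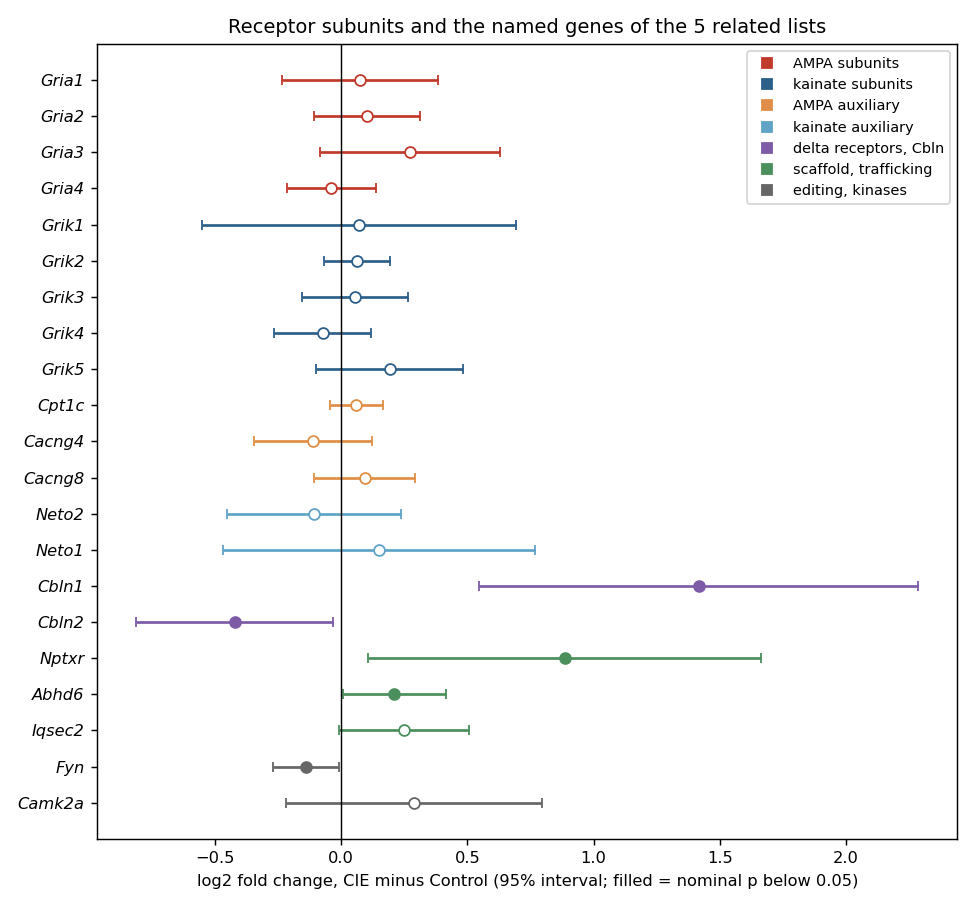
Log2 fold change (CIE minus Control) of the 9 subunits and of the named partner genes from the edgeR fit, with 95% intervals, coloured by list, and filled where the nominal p was below 0.05. All 9 subunits are open and their intervals span 0, with the widest for Grik1 (log2 −0.55 to 0.69) and the narrowest for Grik2 (log2 −0.07 to 0.19).

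The makeup of each family was read as each gene's share of its family's CPM within a rat, a measure that the scaling of libraries cannot move. Gria2 gave 42.5 ± 1.18% of AMPA subunit reads in CIE and 42.5 ± 0.855% in Control (SD, n = 6 each), the most even share of all 9. Gria3 gave 17.4 ± 1.42% in CIE and 15.5 ± 2.07% in Control. Gria3 shares in CIE ran from 16.0 to 19.0%, and the Control rats lay at 13.4 to 15.2% except rat 10, at 19.5%, the highest of all 12. Gria1 gave 29.6 ± 1.95% and 30.3 ± 1.99%, and Gria4 10.5 ± 2.21% and 11.6 ± 2.34%, in CIE and Control.

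Among kainate subunit reads, Grik5 made up 41.6 ± 5.68% in CIE and 39.1 ± 4.96% in Control, Grik2 21.1 ± 1.30% and 21.6 ± 1.74%, and Grik3 19.0 ± 2.06% and 19.6 ± 1.17%. The group ranges of each of these shares overlapped. Grik1 shares ran from 4.75 to 13.6% in CIE and from 2.89 to 10.8% in Control, so the mean of 7.64% in CIE and 7.62% in Control described few of the rats. Grik4 gave 9.15 to 13.3% in CIE and 10.1 to 13.1% in Control. Summed AMPA subunit levels were 1563 ± 223 CPM in CIE and 1452 ± 186 CPM in Control, and summed kainate levels were 645 ± 63.6 and 603 ± 19.4 CPM.

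**Figure D3:**
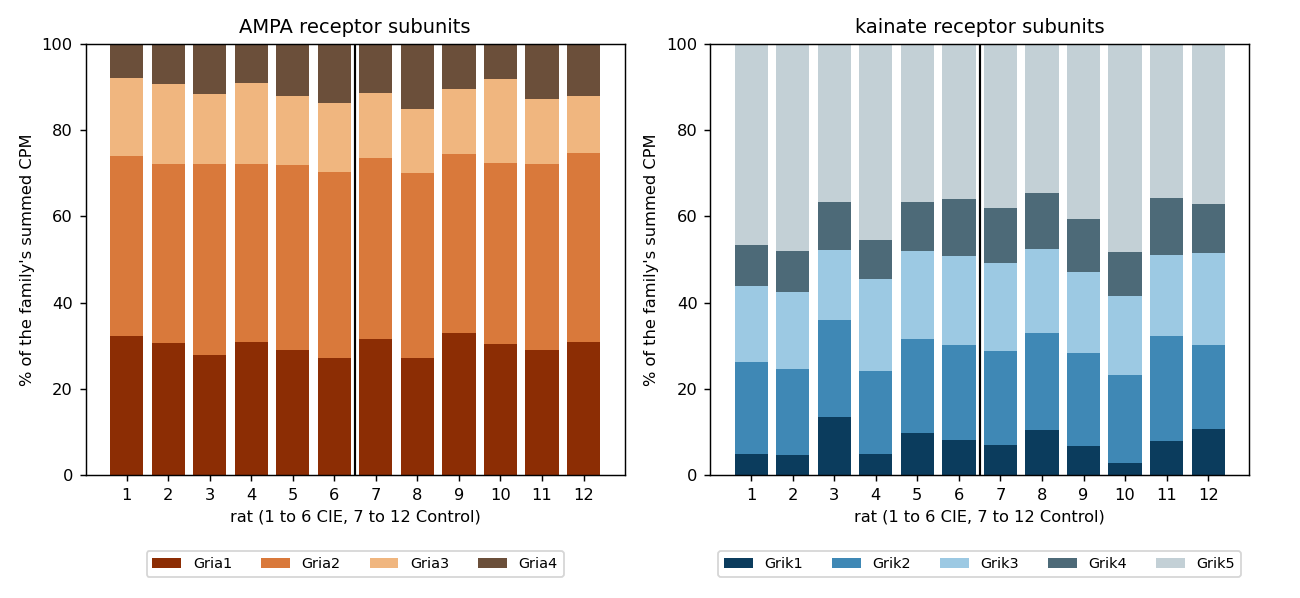
Share of each subunit in its family's summed CPM (percent, vertical axis from 0) as 1 stacked bar per rat, AMPA genes on the left and kainate genes on the right, with a line between CIE rats 1 to 6 and Control rats 7 to 12. The Gria2 segment is nearly as tall in every rat, with a mean of 42.5% in both groups, Grik1 shares spread from 2.89 to 13.6%, and Control rat 10 has the highest Gria3 share (19.5%).

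The variation between rats was larger than that between groups, and it was shared by several subunits. CIE rats 1, 2 and 4 and Control rat 10 had the 4 highest sums of cortical glutamatergic markers (310 to 586 CPM, against 108 to 168 CPM in the other 8 rats). Those 4 rats were also the 4 highest in Gria1 (522 to 557 against 309 to 484 CPM), Gria2 (716 to 734 against 486 to 659 CPM), Gria3 (315 to 334 against 167 to 241 CPM) and Grik5 (283 to 361 against 205 to 242 CPM). They were the 4 lowest in Grik1 (18.2 to 35.8 against 39.8 to 77.9 CPM). They were the 4 highest in 882 of all tested genes (4.21%) and the 4 lowest in 346 (1.65%).

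Striatal projection neuron markers followed the same division in part. Control rat 10 (4700 CPM summed), CIE rat 2 (4371 CPM) and CIE rat 4 (1940 CPM) had the highest sums. Control rat 9 (1058 CPM) came next, above CIE rat 1 (843 CPM). Summed pan-neuronal markers did not separate the 4 rats, at 4888 to 5452 CPM against 4861 to 5428 CPM. Gria4, Grik2, Grik3 and Grik4 did not separate them either. Of the 4 rats, 3 were CIE and 1 was Control. Gria1, Gria2, Gria3 and Grik5 thus had more of these high rats in the CIE group, and Grik1 more of these low rats. The part of the cortical markers in the group difference was not tested beyond the fit with marker scores given above.

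**Figure D4:**
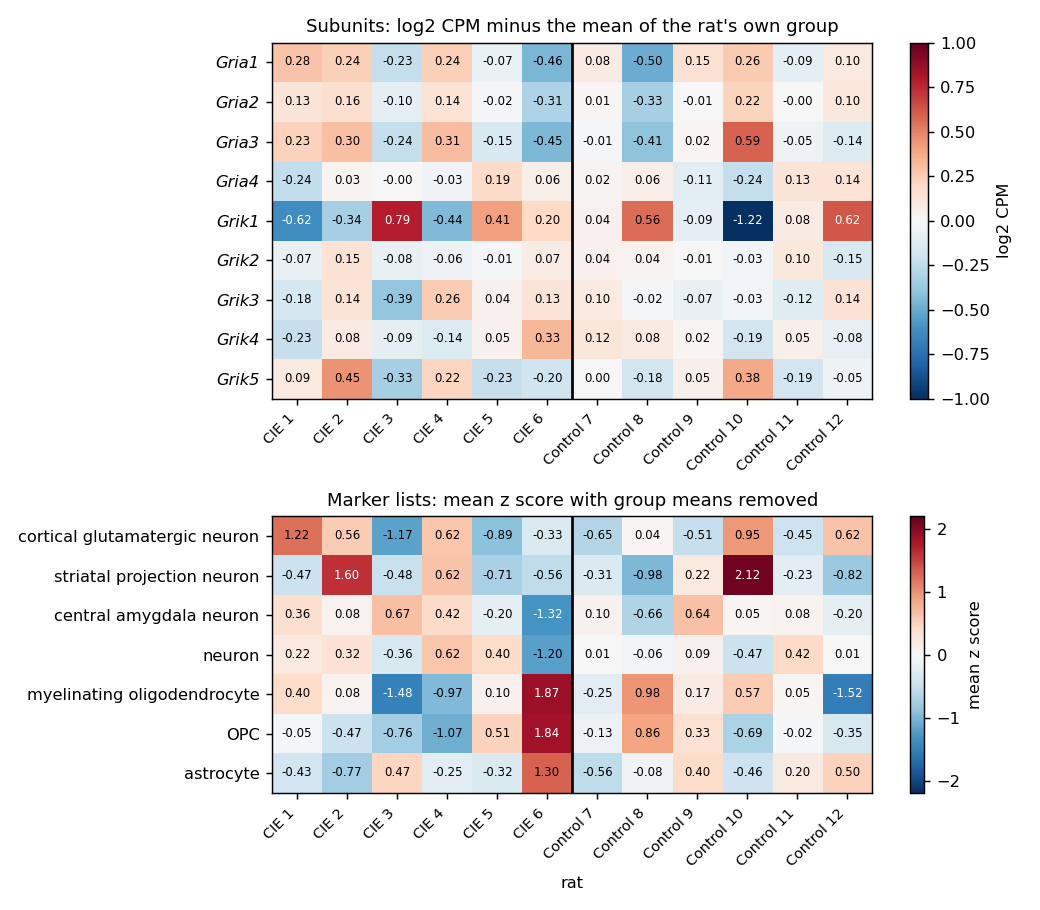
Deviation of each subunit in each rat from the mean of its own group (top, log2 CPM, red above and blue below, colours ending at 1 in either direction) and the mean z scores of 7 marker lists with group means removed (bottom). Gria1, Gria2, Gria3 and Grik5 deviate together, Grik1 in the opposite direction, and Gria1 is lowest in CIE rat 6 (−0.46) and Control rat 8 (−0.50).

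At the other end, CIE rat 6 and Control rat 8 were the lowest of their groups in Gria1, Gria2 and Gria3. Summed CeA neuron markers were also lowest of their groups in these 2 rats (1203 CPM in CIE rat 6 and 1340 CPM in Control rat 8), and summed oligodendrocyte markers were the highest of their groups (14037 and 16660 CPM). With both rats left out, an alternative chosen after seeing the data, the log2 fold changes were 0.07 for Gria1, 0.10 for Gria2 and 0.28 for Gria3 (edgeR FDR = 0.971, FDR = 0.883 and FDR = 0.787). None of the 9 subunits passed a nominal p of 0.05 in that fit. With the oligodendrocyte marker score as a covariate, Gria1 was at −0.093 (edgeR FDR = 0.901) and Gria3 at 0.20 (edgeR FDR = 0.793).

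The relation of each subunit to the cortical and striatal marker scores was computed over 18 pairs. Removing group means ties the values within a group, and the permutations moved rats across groups. The p-values of these correlations are therefore approximate and can be too small. Over all 12 rats, with group means removed, 4 pairs passed a Benjamini-Hochberg adjusted p of 0.05 in a permutation test of Pearson r, namely Gria3, Grik5 and Grik1 with the striatal score and Grik5 with the cortical score. In the permutation test of Spearman rho, Grik5 with the cortical score did not pass (adjusted p = 0.055). Gria2 with the striatal score did (adjusted p = 0.043), as did the same 3 striatal pairs. Because the 4 rats stood apart, no coefficient over all 12 is given. Within the other 8 rats (3 CIE and 5 Control) 0 of 18 pairs passed. An exact p here means only that all orders of the 8 rats were used. The largest coefficient there was that of Grik1 with the striatal score (Pearson r = −0.78, exact permutation p = 0.012, adjusted p = 0.216; Spearman rho = −0.79, exact p = 0.028, adjusted p = 0.476). Leaving out Control rats 8 and 9, the farthest from the median score, gave r = −0.69. For Gria3 with the striatal score r was 0.63 in the 8 rats (exact permutation p = 0.098, adjusted p = 0.493; rho = 0.64, exact p = 0.096) and 0.03 without the same 2 rats. For Grik5 with the striatal score r was 0.52 (exact permutation p = 0.190, adjusted p = 0.560) and −0.26 without these 2 rats. With the cortical score, r in the 8 rats was −0.59 for Gria3, −0.29 for Gria1, −0.19 for Gria2, −0.02 for Grik5 and 0.42 for Grik1. Exact permutation p ran from 0.115 (Gria3) to 0.959 (Grik5). These signs were opposite to those of the division between the 4 rats and the other 8, although none passed and that of Grik5 rests on a very small r. CIE rat 6 and Control rat 12 lay farthest from the median cortical score. Without them r was −0.79 for Gria3, −0.75 for Gria1, −0.74 for Gria2, −0.52 for Grik5 and 0.51 for Grik1. The 4 rats left out here include those with the highest striatal sums (CIE rats 2 and 4 and Control rat 10). A p that misses the threshold over 8 rats does not show that these relations were absent.

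**Figure D5:**
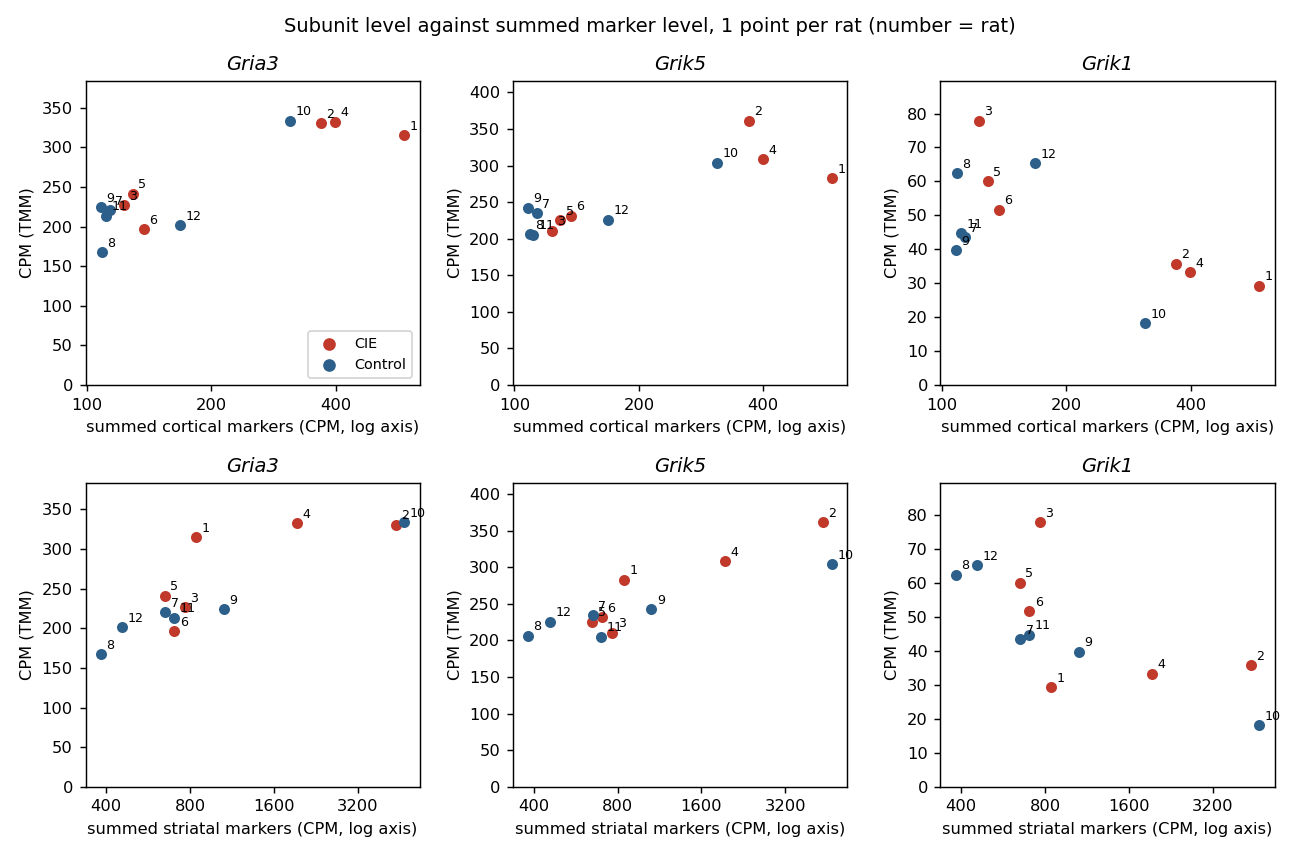
Gria3, Grik5 and Grik1 levels (CPM, vertical axes from 0) against summed cortical markers (top row) and summed striatal markers (bottom row) in CPM on log axes, with 1 numbered point per rat. In the top row CIE rats 1, 2 and 4 and Control rat 10 lie apart at 310 CPM or more, high in Gria3 and Grik5 and low in Grik1.

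The proteins that assemble with, anchor or modify these receptors were examined in 5 lists ordered by role, with 67 genes of which 66 were tested. Of these, 5 passed a nominal p of 0.05 in the edgeR test (7.58%, beside 8.31% of all tested genes), 3 higher in CIE (4.0% of all genes) and 2 lower (4.31% of all genes), and 0 passed 5% FDR. Limma-voom gave 16 of these genes at a nominal p of 0.05 (17.2% of all genes in that fit), again with none at 5% FDR. Leaving out Control rat 10 gave 13 (11.4% of all genes), also with none at 5% FDR. Both counts lay above the share over all genes in the same fit, unlike the count in the main fit.

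Among the AMPA auxiliary subunits, which set receptor trafficking and gating, 0 of 16 tested genes passed, with a median log2 fold change of 0.04. Prrt1 was at 0 counts in every rat, as were 7757 of the 37209 genes in the count table, which does not show that it was not expressed. The smallest p belonged to Cpt1c, an endoplasmic reticulum protein that binds GluA1 (log2 fold change 0.06, edgeR FDR = 0.811), and the TARPs Cacng4 (−0.11, FDR = 0.844) and Cacng8 (0.09, FDR = 0.851) followed. With cortical and striatal marker scores as covariates Cacng4 was at −0.24, past a nominal p of 0.05 (edgeR FDR = 0.213). Cpt1c levels lay between 72.6 and 82.9 CPM over all 12 rats, with the groups overlapping.

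Neto1 and Neto2 encode the auxiliary subunits that slow kainate receptor gating, and neither passed the test. Neto1 ran from 66.1 to 166 CPM in CIE and from 60.6 to 182 CPM in Control (log2 fold change 0.15, edgeR FDR = 0.931), and Neto2 from 39.2 to 74.8 and from 45.7 to 81.3 CPM (−0.11, FDR = 0.908). Control rat 10 was the highest of all 12 in both, followed by CIE rat 2. With cortical and striatal marker scores as covariates Neto2 was at −0.22, past a nominal p of 0.05 (edgeR FDR = 0.467).

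The delta receptor list held delta glutamate receptors and their extracellular cerebellin partners, with 1 gene higher and 1 lower of 6 (4.0% and 4.31% of all tested genes). Cbln1, the secreted cerebellin that links presynaptic neurexin to delta receptors, had 3.51 to 28.8 CPM in CIE and 2.49 to 6.40 CPM in Control. Of the 6 CIE rats, 4 lay above all Control rats, with CIE rat 3 far above the rest, while CIE rats 5 and 6 lay within the Control range. Its log2 fold change was 1.42 ± 0.41 (SE, edgeR FDR = 0.244), 0.92 without CIE rat 3 (FDR = 0.229), and 0.60, no longer past a nominal p of 0.05, with the oligodendrocyte marker score as a covariate (FDR = 0.684). Group means were kept in that score, and 11 of its 12 markers were lower in CIE, so it can take up part of any group difference. The nominal call of Cbln1 was lost only in the fit with the oligodendrocyte score, 1 of the 22 alternative fits. No fit took Cbln1 to 5% FDR. Cbln2 had 14.8 to 24.3 CPM in CIE and 14.1 to 35.4 CPM in Control. Control rat 10 was the lowest of all 12, and of the 5 other Control rats only rat 9 lay below any CIE rat (rat 5). For Cbln2 the log2 fold change was −0.42 ± 0.18 (SE, edgeR FDR = 0.565). It was −0.23 with cortical and striatal marker scores as covariates (edgeR FDR = 0.620), and the nominal call was lost in 11 of the 22 alternative fits, that one included. Of the 11, 7 were fits with 1 rat left out, in which the log2 fold change ran from −0.55 to −0.32 over all 12 such fits.

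The scaffold and trafficking list held 28 genes, of which 2 were higher and none lower (4.0% and 4.31% of all tested genes). In this list 22 genes were above a log2 fold change of 0 (50.3% of all tested genes), with a median of 0.11 (0.00096 over all tested genes). Nptxr, the neuronal pentraxin receptor that clusters AMPA receptors from outside the cell, had 943, 294, 186, 550, 200 and 243 CPM in CIE rats 1 to 6 and 168 to 329 CPM in Control. CIE rats 1 and 4, both among the 4 rats high in cortical markers, lay far above all others. Its log2 fold change was 0.88 ± 0.36 (SE, edgeR FDR = 0.526). It was 0.43 without CIE rat 1 (FDR = 0.859) and 0.15 with cortical and striatal marker scores as covariates (FDR = 0.887), neither past a nominal p of 0.05. Abhd6, a lipase that limits AMPA receptor surface delivery, had 59.9 to 74.6 CPM in CIE and 47.2 to 72.3 CPM in Control. In the Control group 5 rats lay below all CIE rats, and Control rat 10 lay among the highest. For Abhd6 the log2 fold change was 0.21 ± 0.10 (SE, edgeR FDR = 0.590). It was 0.12 with cortical and striatal marker scores as covariates (edgeR FDR = 0.663), and 12 of the 22 alternative fits lost the nominal call. Of these, 8 were fits with 1 rat left out, a set in which the log2 fold change ran from 0.16 to 0.29. Iqsec2, an Arf exchange factor of the postsynaptic density, was at 0.25 (FDR = 0.622).

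Of the 14 genes for RNA editing, kinases and phosphatases acting on the receptors, 1 was lower and none higher (4.31% and 4.0% of all tested genes). Fyn, a Src-family kinase of the postsynaptic density, had 138 to 170 CPM in CIE and 154 to 181 CPM in Control. The groups overlapped, with CIE rats 1, 2 and 4 below all Control rats. The difference was −0.14 ± 0.06 on the log2 scale (SE, edgeR FDR = 0.574), and the nominal call was lost in 13 of the 22 alternative fits, among them those with other library scalings and that with cortical and striatal marker scores (−0.096, FDR = 0.691). Of the 13, 9 were fits with 1 rat left out, a set in which the log2 fold change ran from −0.17 to −0.11. Adarb1, whose product edits the GluA2 transcript, was at 0.10. Camk2a, the kinase that phosphorylates GluA1, was at 0.29 (FDR = 0.809), with its highest level in Control rat 10 (812 CPM) and the next in CIE rat 2 (808 CPM).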

How the data were processed

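Poly-A RNA-Seq libraries of the CeA of 12 rats were analysed from the raw gene counts deposited by the authors, who used BWA to map paired-end reads onto the Rnor_6.0 assembly, HTSeq to assign them to genes and DESeq2 1.26 to compare groups (the tool versions not printed, the gene annotation and the strand setting are not given in the sources used here). Gene counts do not resolve splice forms or edited transcripts. Blank rows between genes were skipped. Counts were filtered with filterByExpr, scaled with TMM and tested with the quasi-likelihood F test of edgeR 4.0.16 in R 4.3.3 (no covariates, two-sided, Benjamini-Hochberg adjustment over all 20944 genes), and the SE was derived from the fold change and its F statistic. Each subunit also had an exact permutation test of mean log2 CPM over all 924 splits, whose smallest p is 0.00216. Alternatives were DESeq2 1.42.0, limma 3.58.1 (voom with sample quality weights), other scalings, filters and marker-score covariates, and leaving out each rat. Scripts were tested on simulated data. Total counts of 39082548 to 95647601 per rat make counting error small beside the spread between rats, and p-values measure that spread. They take each rat as independent. Cages were shared and entered no fit, so the p-values do not account for cage effects, which cannot be told apart from the group difference.

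Named genes were all 9 subunits, the 3 smallest p of each partner list (with any further gene at 5% FDR), the 2 tested genes most correlated with each subunit, and defining markers. Some genes that this rule names are not reported here. Adarb1 and Prrt1 were named after their values were seen. The subunits and all lists were chosen with earlier results of these data known. Marker scores are mean z scores of log2 CPM, with group means removed for the correlations and kept for the covariate fits. A score that differs between groups can therefore take up part of a group difference in those fits. Permutation p-values of the correlations are approximate, because removing group means ties the values within a group. The 4 rats that stood apart in cortical markers, the split into 4 and 8, and the fits without rats 6 and 8 or with the neuron marker score were chosen after seeing the data.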

Additional observations from a re-analysis of the deposited data

Results flagged for a closer look

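Of 64 sets of 6 rats, 6 had 1 rat far from the others (Dixon's 95% criterion, which chance meets in about 1 of 20 sets), and in all 6 it was Control rat 10. That rat had 334 CPM of Gria3 (other Control rats 167 to 224 CPM), 304 CPM of Grik5 (205 to 242 CPM) and a Gria3 share of 19.5% of AMPA subunit reads (13.4 to 15.2%). Its levels of Neto1 (182 CPM, others 60.6 to 96.4 CPM), Neto2 (81.3 CPM, others 45.7 to 58.7 CPM) and Nptxr (329 CPM, others 168 to 221 CPM) were the highest of the Control group as well. Control rat 10 also had the highest sums of cortical (310 CPM) and striatal (4700 CPM) markers among Control rats. The part of these markers in the 6 values was not tested.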

How the results depend on the processing

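Under 22 alternative fits (8 planned, 12 leaving out 1 rat, 2 chosen after seeing the data) no subunit passed 5% FDR. Genes at a nominal p of 0.05 numbered 3596 of all genes with limma-voom and 1347 to 2811 with 1 rat left out. Genes at 5% FDR numbered 76 with edgeR, 273 with DESeq2, 234 with limma-voom, 30 with the oligodendrocyte score as a covariate and 34 (without Control rat 9) to 154 (without CIE rat 6) with 1 rat left out. With library size alone as the scaling, 1060 of 1757 nominal calls were higher in CIE, beside 837 of 1740 with TMM.

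Subunits at a nominal p of 0.05 numbered 2 with limma-voom (Gria3 0.44, adjusted p = 0.127, and Grik5 0.30, adjusted p = 0.200), 1 with cortical and striatal scores (Grik1) and 0 to 2 with 1 rat left out. Partner genes at that threshold numbered 16 with limma-voom, 2 without rats 6 and 8, and 1 to 13 with 1 rat left out. Of all tested genes, 17.2% passed with limma-voom, 8.78% with cortical and striatal scores and 7.1% without rats 6 and 8. With 1 rat left out 6.38 to 13.3% passed, and 11.4% without Control rat 10, the fit with 2 subunits and 13 partner genes. Marker pairs past an adjusted p of 0.05 numbered 0 within the 8 rats and 1 (without Control rat 10) to 9 (without Control rat 12) with 1 rat left out.

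Log2 fold changes that turned sign with cortical and striatal scores were Gria1 −0.070, Gria4 0.027 and Neto1 −0.13. With the oligodendrocyte score they were Gria1 −0.093, Gria2 −0.031, Grik1 −0.16, Grik4 0.068 and Cacng8 −0.049. With limma-voom they were Grik1 −0.21 and Neto2 0.0061. With 1 rat left out the values ran from −0.0035 to 0.16 for Gria1, −0.080 to 0.0051 for Gria4, −0.12 to 0.20 for Grik1, −0.23 to 0.023 for Neto2 and −0.037 to 0.46 for Neto1. Those that kept their sign ran from 0.049 to 0.16 for Gria2 (lowest when Control rat 8 was left out), 0.20 to 0.42 for Gria3, 0.030 to 0.082 for Grik2 (lowest when CIE rat 2 was left out), 0.0022 to 0.12 for Grik3, −0.15 to −0.030 for Grik4 and 0.090 to 0.28 for Grik5. The causes were not tested. No paired analysis was possible because the groups share no rat numbers.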

Other observations

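Some genes outside the lists had levels that followed single subunits closely, as measured by Pearson r of log2 CPM over 12 rats with group means removed. These are descriptions over rats that fell into sets of 4 and 8 by cortical markers, and they carry no test. Each named gene had the highest or next highest r among all tested genes, and such a search gives high values by itself. Igfbp4 and Chrm1, a muscarinic acetylcholine receptor gene, were nearest to both Gria1 (r = 0.98 and 0.98) and Gria2 (0.96 and 0.96). Enc1 (0.99) and Cap2 (0.98) were nearest to Gria3, and Tnik (0.98), which encodes a kinase, to Grik5. Enc1 ranged from 208 to 681 CPM. Nearest to Grik1 were LOC687128 (0.97) and Dner (0.97), which ranged from 136 to 273 CPM.

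Grik5 had 354 genes and Gria3 295 genes with r above 0.9, and Gria1, Grik1 and Gria2 had 81, 73 and 64. Grik3 had 7, Gria4 5, and Grik2 and Grik4 1 each. The nearest to these were Gabrg3, a GABA-A receptor subunit gene, and Bcl2l13 for Grik3 (0.93 and 0.93), LOC501230 and Wnt5a for Gria4 (0.92 and 0.91), Arhgap24 and Cpne3 for Grik4 (0.91 and 0.90), and LOC102550520 and Wisp2 for Grik2 (0.92 and 0.86). Neither of the last 2 exceeded 1.998 CPM in any rat, and LOC501230 did not exceed 1.93 CPM.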
